A study of Mus musculus with 2 samples.

Results

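Id1, Id2, Id3 and Id4, the neogenin gene Neo1 and 5 genes of bone morphogenetic protein (BMP) signalling, Smad6, Smad7, Bmpr1a, Bmpr2 and Acvrl1, were compared between primary and self-renewing mouse macrophages, the latter being macrophages expanded from bone marrow in long-term culture. These 10 of the 22910 genes named on the array were chosen with the difference between the same 2 arrays already known, so all their differences are given as descriptions. They were represented by 13 probes, found through the transcript each probe was designed to detect. The study compared RNA of primary macrophages with RNA of self-renewing macrophages, both grown from the bone marrow of C57BL/6 mice labelled male, in medium with 100 ng/ml recombinant human M-CSF, the growth factor that drives macrophage development. The primary macrophages were taken at day 5. The self-renewing macrophages were taken after passage 4, and the labels name no purified clone, so this RNA stands for a bulk culture. There was 1 array for each cell type, so no difference has a replicate check, no test was made, and differences are reported by their size.

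BMPs are secreted ligands that bind pairs of type I and type II receptor kinases at the cell surface. The type I receptor phosphorylates Smad1, Smad5 or Smad9, which enter the nucleus with Smad4 and switch on target genes, among them the Id genes and the inhibitory Smads. Id proteins are helix-loop-helix proteins without a DNA-binding region, which hold E proteins and related transcription factors away from DNA and are widely known for their part in cell growth and differentiation. Neogenin, the product of Neo1, is a receptor for netrins and for repulsive guidance molecules, and through the latter it can take part in BMP receptor complexes. In liver macrophages, the Kupffer cells, signalling by BMP9 and BMP10 through Acvrl1 is known to support cell identity, and Id1 and Id3 are among the genes that these cells express.

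The RefSeq promoter table used here holds 250 bases of the GRCm38.p6 assembly before the start of 7 of the 10 genes. It has no entry for Id1, Smad7 and Acvrl1. The windows of the 3 other Id genes are shown because the family's members stood so far apart on the arrays. Capitals mark matches, on either strand, to GGCGCC, a GC-rich motif bound by Smads of the BMP branch, to CAGAC, a core Smad-binding motif that reads GTCTG on the other strand, and to CANNTG, the E-box bound by E proteins, and no match overlaps another. The windows lie at chr12:25096093-25096342 (minus strand) for Id2, chr4:136143572-136143821 (plus strand) for Id3 and chr13:48260866-48261115 (plus strand) for Id4.
Id2: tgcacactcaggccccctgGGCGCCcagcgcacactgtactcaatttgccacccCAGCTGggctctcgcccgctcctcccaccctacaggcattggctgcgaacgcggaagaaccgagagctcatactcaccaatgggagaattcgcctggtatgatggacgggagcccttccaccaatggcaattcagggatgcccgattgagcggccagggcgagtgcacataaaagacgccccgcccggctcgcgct
Id3: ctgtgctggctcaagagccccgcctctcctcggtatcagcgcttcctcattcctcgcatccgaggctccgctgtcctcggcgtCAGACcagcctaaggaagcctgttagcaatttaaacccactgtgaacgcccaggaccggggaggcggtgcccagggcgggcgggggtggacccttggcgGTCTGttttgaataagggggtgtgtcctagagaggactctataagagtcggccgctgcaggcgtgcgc
Id4: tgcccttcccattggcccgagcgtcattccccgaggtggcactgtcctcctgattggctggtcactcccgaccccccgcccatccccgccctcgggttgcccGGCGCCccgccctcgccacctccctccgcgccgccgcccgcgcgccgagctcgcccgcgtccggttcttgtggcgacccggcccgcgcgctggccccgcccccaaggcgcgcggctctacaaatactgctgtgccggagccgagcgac

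Each of these windows held a different set of the 3 motifs. Counting the base before the start as position -1, Id3 held CAGAC at -167 and -68 and neither of the other motifs. Id2 held GGCGCC at -231 and an E-box at -196, and Id4 held GGCGCC at -148. GGCGCC was also found once each before Bmpr2 at -105, Neo1 at -28 and Bmpr1a at -198, and so in 5 of the 7 windows, where 9.59% of 32851 windows of the same length held it. CAGAC was found in 1 of the 7 and in 42.2% of all windows, and CANNTG in 1 of the 7 and in 66.2% of all. The members' windows held 62.8% to 83.2% G and C against a median of 52.4%, and the Smad6 window held none of the 3 motifs. The Bmpr1a window lay wholly, and 173 bases of the Neo1 window and 26 of the Smad6 window, inside the annotated span of the gene. A match is a match of letters, and binding was not measured.

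Signal was taken as the background-corrected intensity of a probe, and a level as its log2 relative to the 75th percentile of the array, an intensity of 434 on the primary and 446 on the self-renewing array. Of 56598 probes, 34808 and 33095 were marked by the scanner software as well above background, and no spot was saturated. The dimmest such probes had an intensity of 11.8 and 13.2, or a level of -5.20 and -5.08. Within an array, the spots of a probe present 10 times had a median SD of 0.043 and 0.047 log2, over 286 and 284 probes. Between probes of the same gene, the root mean square SD of the difference was 0.33 log2 over 5077 genes. All 10 macrophage markers were well above background on both arrays, with a median difference of 0.39 log2. The sum of their linear levels was 1088 and 1484 times the 75th percentile. They did not all stay alike, since Mertk differed by 2.23 log2 and Fcgr1 by -1.76, while 8 were within 2-fold. Of 10 neutrophil markers, 8 were measured and 7 were at least 2-fold lower in the self-renewing macrophages, where the sum of the list's levels was 6.56 against 105 in the primary macrophages. S100a8 and S100a9 were not well above background there, and Mpo and Elane still were. Although both labels say male, 4 of 7 Y-linked genes were above background only on the self-renewing array. By their main probes these were at least 10.9-fold (Uty) to at least 157-fold (Eif2s3y) higher. Sry was dim on both arrays, at levels of -4.19 and -4.13, and Zfy1 and Usp9y were not well above background on either. The part of a difference between the source animals in any value was not tested.

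Of the 10 members, 9 were well above background on both arrays and Id4 on neither. The self-renewing macrophages had at least 2-fold more signal for Neo1, Id3, Id1 and Smad6, and the other 5 were within 2-fold. Over all 15516 genes measured on at least 1 array, 4.76% were at least 2-fold higher and 8.38% were lower by as much, where 0 members were. The first 3 were also at least 5-fold higher, as were 1.02% of all genes. Since the members were chosen on this contrast, nothing is read from these shares. The median difference of the 9 was 0.84 log2, beside -0.02 over all genes. In RNA of a whole culture, more cells expressing a gene and more RNA of it per cell cannot be told apart.

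**Figure D1:**
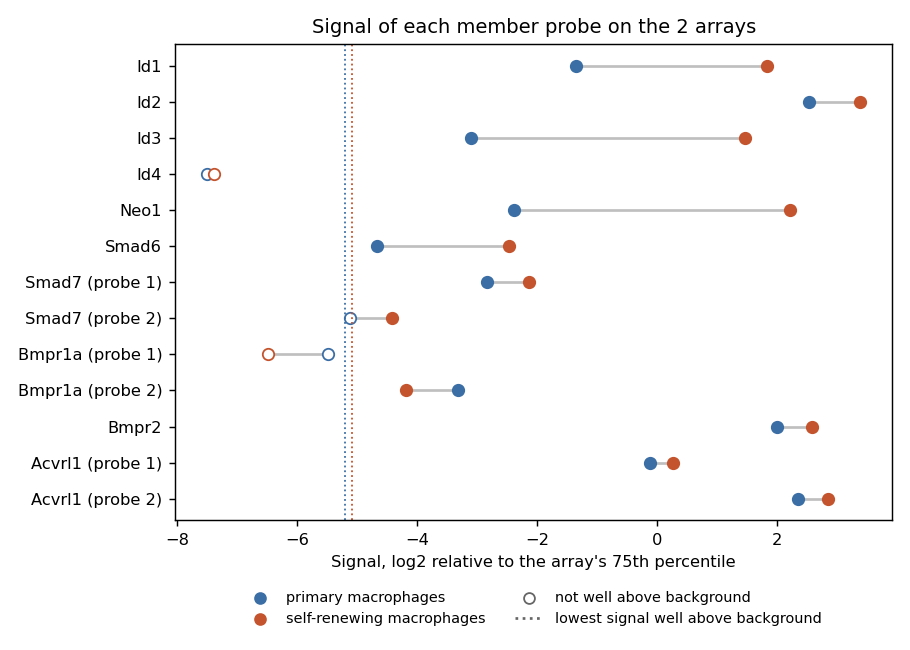
Level of each of the 13 probes of the members in primary (blue) and self-renewing (orange) macrophages, as log2 of the signal relative to the 75th percentile of the array. Each point is 1 array, open points were not well above background, and dotted lines mark the lowest level that was; Id1, Id3 and Neo1 lie below 0 in the primary and above 0 in the self-renewing macrophages, and the Id4 probe lies below the lines on both.

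Id3 and Id1, which are among the best-known early targets of BMP signalling, showed the large differences of the Id family. The intensity of Id3 was 50.8 in the primary and 1236 in the self-renewing macrophages. Its level thus went from -3.09 to 1.47, from the dim part of the primary array to above the 75th percentile of the other. The difference was 4.56 log2, or 23.6-fold, with an error of 0.22 log2 from the scanner's own estimates. Of the 14003 genes above background on both arrays, 8 were higher by more, a rank that leaves out the size of decreases. Id1 had an intensity of 170 and 1590, levels of -1.35 and 1.83, and a difference of 3.18 log2, or 9.07-fold, with an error of 0.21. It was well above background in both cell types, and 46 of the 14003 genes were higher by more.

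Id2 and Id4 did not share this. Id2, which among blood cells is needed for natural killer and other innate lymphoid cells, was already bright in the primary macrophages, with an intensity of 2516 there and 4631 in the self-renewing macrophages. Its levels of 2.54 and 3.38 differed by 0.84 log2, or 1.79-fold, with an error of 0.20. Id4, which is known from neural precursors, had an intensity of 2.41 and 2.67, below the dimmest probes called well above background, so its RNA has only an upper bound in both. Each Id gene had 1 probe, so no second probe checks these values.

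Neo1 had the largest difference of the 9 measured members. The intensity of its probe was 83.0 in the primary and 2078 in the self-renewing macrophages. Its levels of -2.39 and 2.22 differed by 4.60 log2, or 24.3-fold, with an error of 0.21. Of the 14003 genes above background on both arrays, 7 were higher by more. The differences of Neo1 and Id3 were within the scanner's error of each other. Like Id1 and Id3, Neo1 was well above background in both cell types, so that these are measured differences and not bounds.

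The inhibitory Smads, targets of the pathway that block its receptors and receptor-regulated Smads, were dim in both cell types. Smad6, which acts mainly on the BMP branch, had an intensity of 17.0 and 80.2, levels of -4.67 and -2.48, and a difference of 2.19 log2, or 4.58-fold. Its error of 0.30 was the widest among the members, since the probe lay only 0.53 log2 above the dimmest probes called well above background on the primary array. Smad7, which acts on both the BMP and TGF-beta branches, had intensities of 60.7 and 101, levels of -2.84 and -2.14, and a difference of 0.70 log2, or 1.62-fold, with an error of 0.22. Its other probe was above background only on the self-renewing array, at an intensity of 20.9 and levels of -5.11 and -4.41, and was at least 1.62-fold higher. Both Smad7 probes were thus brighter on the same array, the main one by less than 2-fold.

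The receptors among the members were each within 2-fold. Acvrl1, the type I receptor also called ALK1 that binds BMP9 and BMP10, had intensities of 2211 and 3222, levels of 2.35 and 2.85, and a difference of 0.50 log2, or 1.42-fold, with an error of 0.20. Its other probe had intensities of 400 and 538 and a difference of 0.39 log2, or 1.31-fold. Bmpr2, the type II receptor, had intensities of 1736 and 2657, a level of 2.57 in the self-renewing macrophages, and a difference of 0.57 log2, or 1.49-fold, with an error of 0.20. Both receptors were bright in both cell types and somewhat higher in the self-renewing macrophages. Bmpr1a, the type I receptor also called ALK3 that binds BMP2 and BMP4, was the one member that was lower, with intensities of 43.6 and 24.7, levels of -3.31 and -4.18 and a difference of -0.86 log2, or 1.82-fold, with an error of 0.27. Its other probe, at 9.65 and 5.00, was below background on both arrays and gives no second value.

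**Figure D2:**
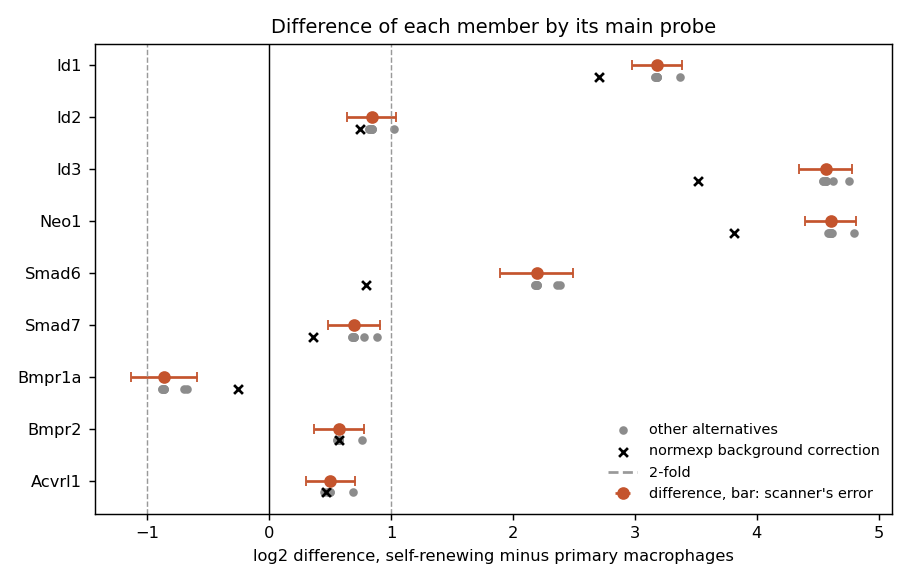
Difference of the 9 measured members, self-renewing minus primary macrophages in log2, by the main probe (orange, bars show the scanner's error) and under 8 other ways of processing (grey points and crosses). Neo1 and Id3 lie above 4 and Id1 above 3, Bmpr1a alone lies below 0, and the crosses, a model-based background correction, lie nearer to 0 for the dim genes.

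No other way of processing turned the direction of a member, though a change of the background filter alone could not move any of the 9 measured. The correction for background mattered most. With a normexp correction, a model of signal and background that adds a fixed offset and so shrinks differences of dim probes, Neo1 differed by 3.82 log2, Id3 by 3.51, Id1 by 2.70 and Bmpr1a by -0.26. Smad6 differed by 0.79 log2 and so was within 2-fold, leaving 3 members at least 2-fold higher. With the values as the authors had scaled them, the Id2 difference was 1.03 log2 and 5 members were at least 2-fold higher. This scaling moved the median of all measured genes to 0.17 log2.

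The genes around a member on the chromosome, the 5 nearest measured genes on each side, were mostly within 2-fold. Around Id1 on chromosome 2 none of the 10 differed by 2-fold, their range being -0.59 to 0.42 log2. Around Id3 on chromosome 4, only Htr1d was past 2-fold, at 1.45 log2. Around Neo1 on chromosome 9, Cd276, an immune checkpoint protein of the B7 family, differed by -3.74 log2 and the other 9 lay between -0.54 and 0.37. Both adjacent genes of Smad6, also on chromosome 9, were higher as Smad6 was. On one side lay Smad3, a receptor-regulated Smad of the TGF-beta branch, at 1.87 log2, and on the other 1110036E04Rik, a transcript of unknown function, at 1.11. Around Bmpr2 on chromosome 1, 3 of the 10 were past 2-fold, Carf at 1.84, Cdk15 at -2.77 and Fzd7 at -1.18, none of them adjacent to it. Sncg, next to Bmpr1a on chromosome 14, differed by -1.08, the direction of Bmpr1a itself. Around Id2 and Acvrl1 there was 1 such gene each, Rrm2 at -1.43 and Nr4a1 at -1.84, and around Smad7 there were 0.

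**Figure D3:**
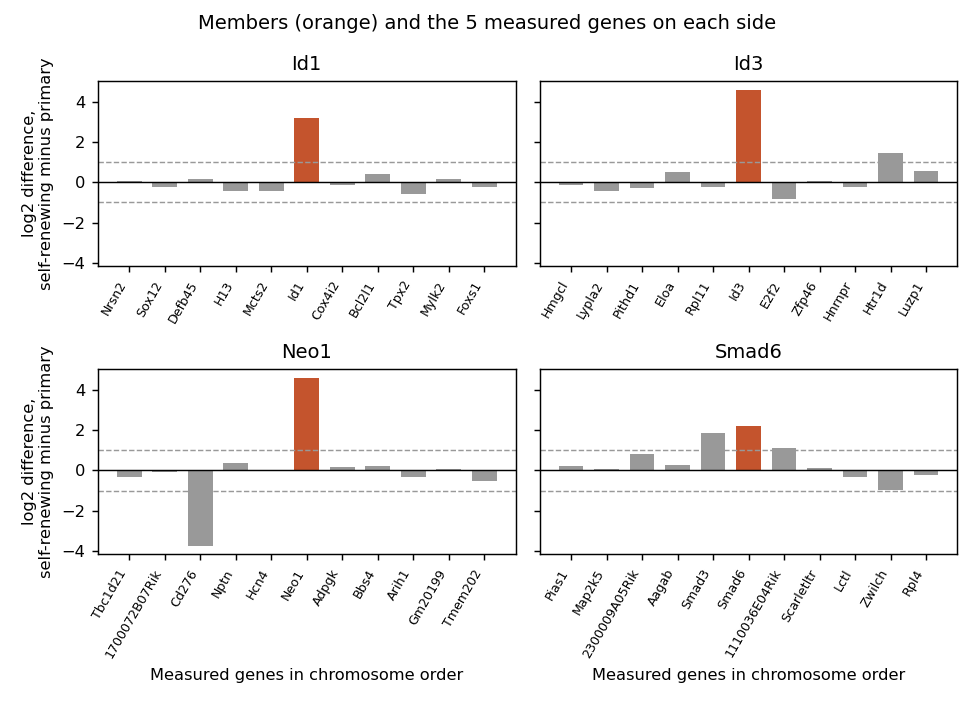
Log2 difference, self-renewing minus primary macrophages, of Id1, Id3, Neo1 and Smad6 (orange) and of the 5 measured genes on each side in chromosome order (grey), with dashed lines at 2-fold. Id1 and Id3 stand above all their neighbours, Cd276 near Neo1 reaches -3.74, and Smad3 next to Smad6 reaches 1.87.

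The other genes of the pathway were taken by role, and their differences are descriptions too. Since the members were chosen on this contrast, nothing is read from a comparison of these genes with them. Of 15 BMP and GDF ligands, 5 were measured, and none was at least 2-fold higher. Gdf3, a ligand related to Nodal signalling, was lower by -2.13 log2. Its second probe, at a level of 2.72 in the primary macrophages, was not above background on the self-renewing array and was at least 224-fold lower there, so the size of the difference depended on the probe. Gdf2, which encodes BMP9, was not well above background on either array, while the Bmp10 probe was, with levels of -4.25 and -4.51. Bmp2, Bmp6 and Bmp7 were not well above background on either array, and Bmp4 was so only in the primary macrophages, at a level of -4.71. Bmp8a was the brightest on the self-renewing array, with levels of 0.545 and 0.626, and Gdf5 had levels of -3.42 and -4.04. The cells' own transcripts for 10 of the 15 ligands were thus not well above background on either array, and ligand in the medium or serum was not measured. Of 16 extracellular antagonists 6 were measured and 0 differed by 2-fold (2 were higher by as much with the authors' scaled values), with Twsg1 at 0.92 and Nog, which encodes noggin, at -0.44 log2.

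Among the receptors outside the members, 1 of 7 measured differed by 2-fold. Tgfbr2, the TGF-beta type II receptor, was 2.16-fold higher, with levels of 3.62 and 4.73, and its partner Tgfbr1 was 1.76-fold higher. The BMP type I receptor Acvr1 had levels of 2.27 and 2.28 and so hardly differed, whereas Bmpr1b was not well above background on either array. The type II receptors Acvr2a and Acvr2b differed by -0.42 and 0.57 log2. The co-receptors went both ways. Rgmb, a repulsive guidance molecule that binds both BMPs and neogenin, had levels of -3.99 and -2.51 and was 2.79-fold higher, and its second probe was at least 3.04-fold higher. With the normexp correction 0 co-receptors, Rgmb included, were higher by 2-fold. Bambi, a pseudoreceptor without kinase activity that dampens BMP and TGF-beta signals, had a level of -1.67 in the self-renewing macrophages and was 6.82-fold lower there, a difference of -2.77 log2. Tgfbr3, the co-receptor betaglycan, was at least 7.63-fold lower, and Eng, the endoglin gene whose product pairs with Acvrl1, differed by 0.14 log2.

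On the side of neogenin, 6 of 12 listed ligands and relatives were measured and Rgmb was the 1 gene past 2-fold. The count of genes higher by 2-fold was 0 with the normexp correction, 2 with the authors' scaled values and 3 with no background filter. Rgma differed by -0.33 log2, and Hjv, the third repulsive guidance molecule, was not well above background on either array. Ntn1, the classical netrin ligand, was also not well above background on either array, and Ntn3 differed by -0.51. The netrin receptors Unc5a and Unc5b differed by 0.92 and -0.63 log2. Dcc, the closest relative of neogenin, differed by 0.18 by its 1 bright probe, and 3 other Dcc probes were below background on both arrays.

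The Smads that carry the signal differed little on the BMP branch. Smad1 had levels of 2.77 and 2.43 and Smad5 of 1.02 and 1.57, differences of -0.34 and 0.55 log2. Smad9 was not well above background on either array, and Smad4, the partner of all, differed by 0.04 log2. On the TGF-beta branch Smad3 was 3.65-fold higher, with levels of -1.15 and 0.72, and its second probe was 4.27-fold higher. The probes of Smad2 gave -0.15 and 0.87 log2. Of 11 intracellular inhibitors and corepressors, all measured, 2 were higher by 2-fold or more and 0 lower. They were Pmepa1, which keeps receptor-regulated Smads from the receptor, at 2.20 log2, and Skil, the corepressor SnoN, whose 3 probes gave 1.62 to 1.71. The median of these 11 was 0.31 log2.

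**Figure D4:**
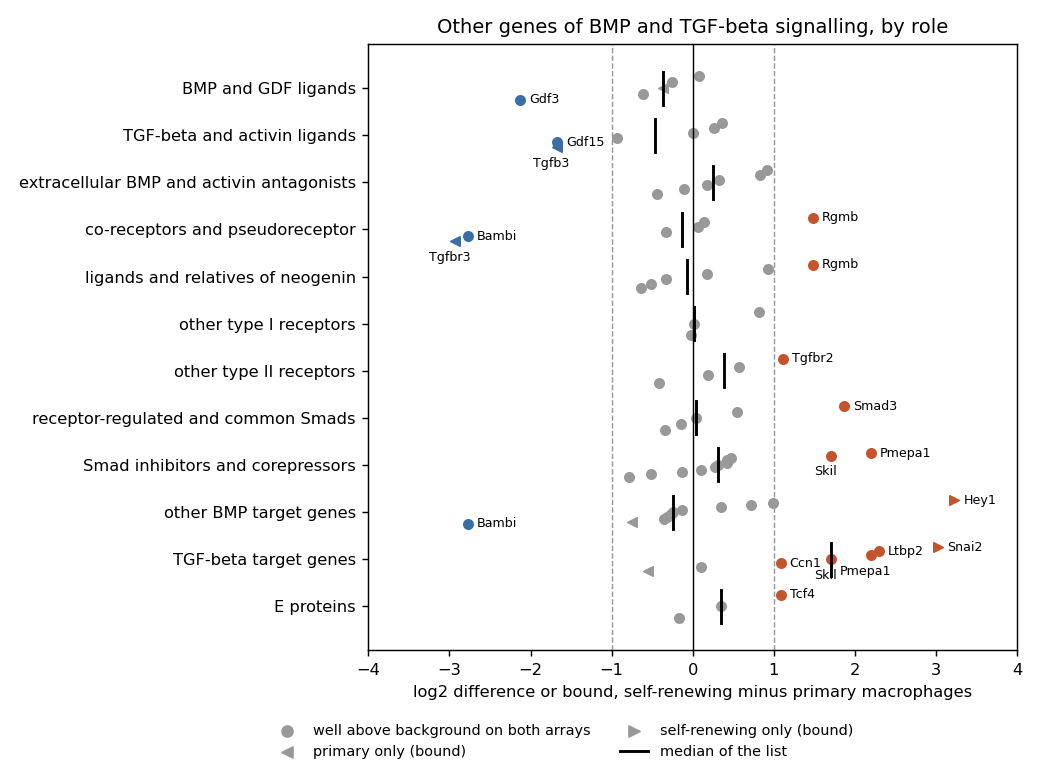
Log2 difference, self-renewing minus primary macrophages, of the measured genes of 12 lists by role (points, with triangles where a gene was well above background on 1 array and the value is a bound), with the median of each list as a black bar and dashed lines at 2-fold. Genes past 2-fold are named, and they include Rgmb, Tgfbr2, Smad3, Pmepa1, Skil, Snai2 and Hey1 on the higher side and Gdf3, Tgfb3, Gdf15, Tgfbr3 and Bambi on the lower.

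The targets of BMP signalling other than the members were not higher as a group. Of 16 listed, 11 were measured, 1 was higher and 1 lower by 2-fold or more, with a median of -0.24 log2. The one that was higher was Hey1, a transcriptional repressor also known as a Notch target, which was above background only on the self-renewing array and at least 9.35-fold higher there. The one that was lower was Bambi, given above. The count of those higher by 2-fold was 2 with quantile normalization or the authors' scaled values, and 0 where only probes above background on both arrays were kept. The count of those lower was 3 with no background filter. Some of these targets were dim, such as Dlx2 at levels of -4.41 and -4.68, and others bright, such as Junb at 4.17 and 4.88. Hamp, which encodes hepcidin and is a classical BMP target of the liver, was not well above background on either array, and Atoh8 was so only in the primary macrophages.

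More of the listed targets of TGF-beta were past 2-fold. Of 11 listed, 7 were measured and 5 were at least 2-fold higher, with a list median of 1.71 log2. Besides Skil and Pmepa1 these were Ltbp2, a latent TGF-beta binding protein of the matrix, at 2.30, the matricellular gene Ccn1 at 1.08, and Snai2, a zinc-finger repressor, which was at least 8.13-fold higher. Tgfbi, a matrix protein named for its induction by TGF-beta, was bright in both at 0.10 log2. With the normexp correction 3 of the 7 were at least 2-fold higher, with a median of 0.98. Of 13 TGF-beta and activin ligands, 6 were measured and 2 were at least 2-fold lower, Tgfb3 by at least 3.19-fold and Gdf15 by 3.19-fold, whereas Tgfb1 differed by 0.27 log2. With the normexp correction 1 of these ligands was at least 2-fold lower.

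All 3 genes of E proteins, partners that Id proteins hold, were well above background on both arrays. The E protein genes Tcf3 and Tcf12 differed by -0.16 and 0.35 log2. Tcf4 differed by 1.09 log2 by its main probe and by 0.47 to 1.43 by 3 others, while another probe was above background only on the primary array. With the mean over probes, none of the 3 E protein genes was at least 2-fold higher. Of 18 other helix-loop-helix factors, 13 were measured and 3 were at least 2-fold higher. They were Hey1, Tal1, a factor of blood stem cells and red cell precursors, at 1.14 log2, and Bhlhe41, a repressor known from the circadian clock and from alveolar macrophages, at 1.17. None was at least 2-fold lower, and the median was 0.35 log2.

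Genes known from Kupffer cells, in which Id1 and Id3 are expressed, went both ways. Of 12 listed, 9 were measured, 2 were higher and 3 lower by 2-fold or more, with a median of -0.23 log2. The median turned to 0.59 where only genes above background on both arrays were kept. The iron exporter Slc40a1 and the folate receptor Folr2 were higher, by 1.77 and 1.23 log2. Nr1h3, the nuclear receptor LXR alpha that maintains Kupffer cells, differed by -3.56, Cd5l by -3.21 and the scavenger receptor Marco by -1.88. Clec4f and Timd4, which mark Kupffer cells in the liver, were not well above background on either array.

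Since Id1, Id3, Acvrl1 and Eng are strongly expressed by endothelium, and BMP signalling is active in stroma, markers of these cells were read on the same arrays. Of 10 endothelial markers 7 were measured, and 1, Egfl7, differed by 2-fold, at -2.27 log2. Their summed level was 8.69 in the primary and 6.64 in the self-renewing macrophages, in units of the 75th percentile, with Vwf the brightest marker, at levels of 2.82 and 2.52. The median difference of the 7 was -0.41 log2. Pecam1 differed by 0.36 log2 and Cldn5, above background only on the self-renewing array, was at least 1.63-fold higher. Kdr differed by -0.41 log2, and Cdh5 and Esam, above background only on the primary array, were at least 1.76-fold and 1.47-fold lower. Tek, Tie1 and Emcn were below background on both arrays. Of 10 stromal markers 4 were measured and 0 differed by 2-fold, with a summed level of 61.5 and 55.8, most of it from Acta2, at levels of 5.69 and 5.55. The probes of Acta2 did not give the same level. A second one was at -0.95 and -1.68, and another was not well above background on either array. Lepr had levels of 3.27 and 3.13 by 1 probe, and its other probes were not well above background on either array. The collagen gene Col1a2 was above background on both arrays and 1.62-fold higher, at levels of -3.04 and -2.34. Col1a1, Col3a1, Dcn, Lum, Pdgfra and Pdgfrb were below background on both arrays. The sum of the neutrophil markers was 105 and 6.56, as given above. The part of any of these cell types in the differences of the members was not tested.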

How the data were processed

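Total RNA was labelled with 1 dye and hybridised to Agilent mouse arrays, 1 per cell type. The authors deposited scanner output made with Agilent Feature Extraction 11.5.1.1 (array design on build mm9), with the intensity of each spot raw and after background correction within the array, and flags for background, saturation and outliers. They also deposited a table that equals the corrected intensity times a constant, 1.07 (primary) or 1.19 (self-renewing), and the reason for these constants is not given in the sources used here.

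Here 63 outlier spots per array and all control spots were left out, spots of a probe were averaged, and the 75th percentile over gene probes was subtracted from log2 intensity. Transcript identifiers were matched to RefSeq genes of GRCm38.p6, which named 32988 of 56598 probes (58.3%). Since the array uses another build, gene coordinates are given only for promoter windows. The main probe of a gene had the highest mean signal. Where 1 array alone was well above background, the fold is a lower bound. It was set against the dimmest probe called above background on the other array, or against the probe's own signal there if brighter. Scanner errors come from the deposited intensity errors.

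Thresholds were 2-fold and 5-fold. Named genes are the members with all probes, listed genes past 2-fold, and ligands, receptors, Smads and E proteins where a count was 5 or fewer. From the neutrophil and Y-linked lists, not all genes past 2-fold are named. Neighbouring genes and other listed genes under 2-fold were named after their values were seen, some genes stand in several lists, and 1 listed gene is not reported here. The members and lists were chosen with earlier results of these data known. The alternatives were normexp with an offset of 50, which used median spot signal as the files hold no mean, 2 other percentile or median scalings, quantile normalization, the authors' scaled values, no background filter, both arrays only, and the mean over probes. The scripts were tested on simulated data. The tools were R 4.3.3 with limma 3.58.1, and matplotlib 3.10.9, numpy 2.4.6 and pandas 2.3.3 under Python 3.11.15.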

Additional observations from a re-analysis of the deposited data

How the results depend on the processing

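Under 8 alternatives the 9 measured members gave 72 values, of which 0 changed direction and 6, all with normexp, moved by more than the spread between probes of a gene. Many of these values could not differ much. All 9 were well above background on both arrays, so a change of the background filter alone left them as they were. The percentile, median and authors' scalings shifted all members by the same amount, and the mean over probes moved only Smad7 and Acvrl1. Over these alternatives Neo1 ranged from 3.82 to 4.79 log2, Id3 from 3.51 to 4.75, Id1 from 2.70 to 3.37, Smad6 from 0.79 to 2.38, Smad7 from 0.36 to 0.88 and Bmpr1a from -0.88 to -0.26. Members at least 2-fold higher numbered 4, except 3 with normexp and 5 with the authors' scaled values, and 0 were at least 2-fold lower under any. Over all genes, 739 were at least 2-fold higher and 1300 lower, against 427 and 759 with normexp, 1192 and 2336 with no background filter, and 588 and 782 where only probes detected on both arrays were kept. Of the genes past 2-fold, 36.2% were higher, against 49.2% with the authors' scaled values and 40.7% with quantile normalization. The median of TGF-beta and activin ligands turned from -0.47 to 0.021 with no filter and 0.002 on both arrays only, and that of Kupffer cell genes from -0.23 to 0.59 on both arrays only, where fewer genes entered. Naming probes by a gene name of the scanner files was not run, since the columns used hold none. No paired analysis was possible because a single array stands for each culture. Depth on an array is signal over background, which limits Smad6, Bmpr1a and the second Smad7 probe most and gives no level for Id4.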
